A study of Mus musculus with 18 samples.

Results

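Hearts of 20-day-old rats that are homozygous for a mutation altering the splicing of titin were compared with hearts of wild-type rats of the same age. The comparison took the 6 arrays described as day 20 mutant or wild-type heart, 3 of each genotype, out of 18 arrays in the series, and covered all 31042 probe sets that are not controls. The other 12 arrays come from both genotypes at 1 and 49 days of age. The mutation was found in Sprague-Dawley rats, which were then crossed with Fisher 344 inbred rats, so both genotypes carry a mixed background. The labels name no treatment, and the animals were fed standard chow. Each array holds the RNA of 1 animal, taken from the ventricles according to the design text, while the sample titles name the whole heart. The labels do not say which animals were littermates or how many generations of crossing came before. The genotype field carries the same entry for every sample, so the genotype was taken from the description, and the organism field names mouse although the descriptions, strains and array are rat.

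RBM20 is an RNA-binding protein of striated muscle that keeps exons of the titin spring region out of the mature transcript. Without it the heart makes a longer and more compliant titin, and in people mutations of the gene cause dilated cardiomyopathy. Titin spans from the Z-disc to the M-band of the sarcomere, and several stretch-responsive proteins bind to its spring segments. Around day 20 the rat heart has largely left the phase of dividing cardiomyocytes and is shifting to its adult protein isoforms.

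Levels are log2 values from robust multi-array analysis (RMA), which combines the probes of a probe set, so that a difference of 1 is a 2-fold change. Levels of different genes are not compared with each other, and where a gene has several probe sets they are told apart by their mean level. A probe set was called where limma's moderated test gave an adjusted p below 0.05 over all probe sets, and rose or fell is used of such probe sets alone. The median level over all probe sets was 5.47, and a level near or below it can be mostly background. Each sample here is bulk tissue, so fewer cells of a type and less RNA per cell cannot be told apart. Correlations of a day 20 array with its own group lay between 0.992 and 0.994. The 17 measured cardiomyocyte markers had mean levels of 12.73 to 12.94 on the 6 arrays. The Xist level was above 8 on 1 of 3 arrays in each genotype, at 11.67 or more, and at most 3.46 on the others. Wild-type array 2 stood apart in the evenness of its RNA ends. Its 3′ probe set exceeded the 5′ one by 0.90 for Gapdh and 1.90 for Actb, against 0.33 to 0.62 and 1.29 to 1.49 on the other 5 arrays.

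At day 20, 43 of 31042 probe sets were called (0.139%), of which 24 were higher and 19 lower in the mutant. They included 30 probe sets of 26 named genes, 19 of these genes higher and 8 lower, with 1 gene called in both directions by different probe sets. The median difference over 14217 genes was -0.01 and 47.6% of genes were higher in the mutant. Leaving out 1 array gave 22 calls without mutant array 2, 24 without wild-type array 1, 21 without wild-type array 2, 21 without wild-type array 3 and 29 or 32 without the others. In all 43 the 3 mutant arrays lay apart from the 3 wild-type arrays, and 21 differed by more than 1. By the probe set of highest mean level, 0.134% of genes were called higher and 0.0492% lower, while the genotypes did not overlap, with the mutant higher, in 5.21% of genes and, with the mutant lower, in 6.65%. Before adjustment 1326 probe sets had p below 0.05, which is 4.27% where 5% would be met if nothing differed.

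**Figure D1:**
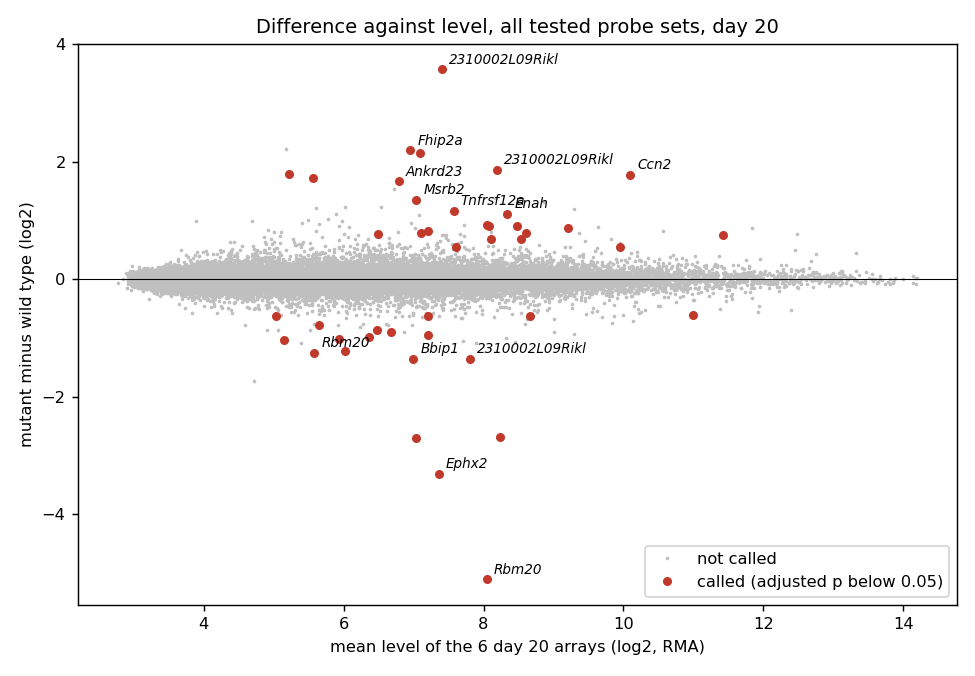
Mutant minus wild-type difference (log2) against the mean level of the 6 day 20 arrays (log2, RMA) for all tested probe sets, with the 43 called ones in red and those beyond a difference of 1.1 with a symbol named. The lowest point is Rbm20 at -5.11 and the highest is 2310002L09Rikl at 3.57.

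Rbm20 itself, the splicing regulator affected in this line, was the largest fall. Its first probe set stood at 5.35, 5.45 and 5.67 on the mutant arrays and at 10.60, 10.31 and 10.89 on the wild-type arrays. The mutant arrays were at the array-wide median and far below every wild-type array. The difference was -5.11 ± 0.20 (SE; limma, adjusted p = 6.84e-11), and no fold is given for levels this close to the array-wide median. Its second probe set, dimmer in both genotypes, fell by 1.25 ± 0.15 (adjusted p = 0.000396). Among 17 measured regulators of muscle splicing Rbm20 was the called member, where 0.0492% of all genes were called lower. The others with the largest differences were Rbfox1 at -0.26 ± 0.18, Celf2 at -0.20 ± 0.24 and Rbfox2 at 0.10 ± 0.09, all splicing factors of muscle (limma, adjusted p = 1 for each).

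The genes that lie beside Rbm20 on the chromosome were read as well. The order of genes was taken from the mouse assembly GRCm38.p6. Of 30 neighbours, 15 on each side, 23 had a probe set. Of these genes 2 were called in at least 1 of their probe sets, 41 in total, where 26 of all 14217 genes were called. Bbip1, a subunit of the BBSome that moves cargo at cilia, lies 3 genes away. It stood at 6.15, 6.42 and 6.38 in the mutant and 7.59, 7.79 and 7.62 in the wild type. It fell by 1.35 ± 0.15 (limma, adjusted p = 0.000169), and by 1.36 at day 1 and 1.37 at day 49. Pdcd4, an inhibitor of the translation factor eIF4A, lies 2 genes away and rose by 0.91 ± 0.16 (adjusted p = 0.0192) and 0.78 ± 0.15 (adjusted p = 0.0489) in 2 of its 5 probe sets. Both Pdcd4 probe sets had mutant values above every wild-type value, at 8.28 to 8.83 against 7.46 to 7.76 in the first. The other 3 probe sets of Pdcd4 were not called, with differences of 0.12, 0.63 and 0.77. The first call held without array 1 of either genotype and was lost without each of the other 4 (adjusted p 0.0636 to 0.143), and the second without any array but mutant array 1 (0.0792 to 0.305).

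Genes whose products sit on the titin spring were next. All 11 measured members of a list of titin N2A ankyrin repeat and spring-binding proteins were higher in the mutant. Their median difference was 0.19 against -0.01 for all genes, and 2 were called, against 0.134% of all genes called higher. This list and the others were chosen with earlier results of these data known. Their counts beside the shares over all genes are therefore description and not a test. Without any 1 of the 6 arrays all 11 stayed higher, with medians of 0.14 to 0.21. Ankrd23, an ankyrin repeat protein that binds the N2A segment of titin, stood at 7.47, 7.93 and 7.47 in the mutant and 5.85, 5.66 and 6.35 in the wild type. Each mutant value was above each wild-type value by more than 1. It rose by 1.67 ± 0.24 (limma, adjusted p = 0.00283). Fhl1, a LIM protein that binds the titin N2B segment, stood at 11.65, 11.86 and 11.89 against 11.07, 11.06 and 11.03. It rose by 0.74 ± 0.11 (adjusted p = 0.00304). Ankrd1, a relative of Ankrd23, had a difference of 0.31 ± 0.14 in its brighter probe set and Ankrd2 one of 0.05 ± 0.12, and neither was called. Titin's own probe set was level between genotypes at 0.07 ± 0.10 and does not read its splice forms.

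**Figure D2:**
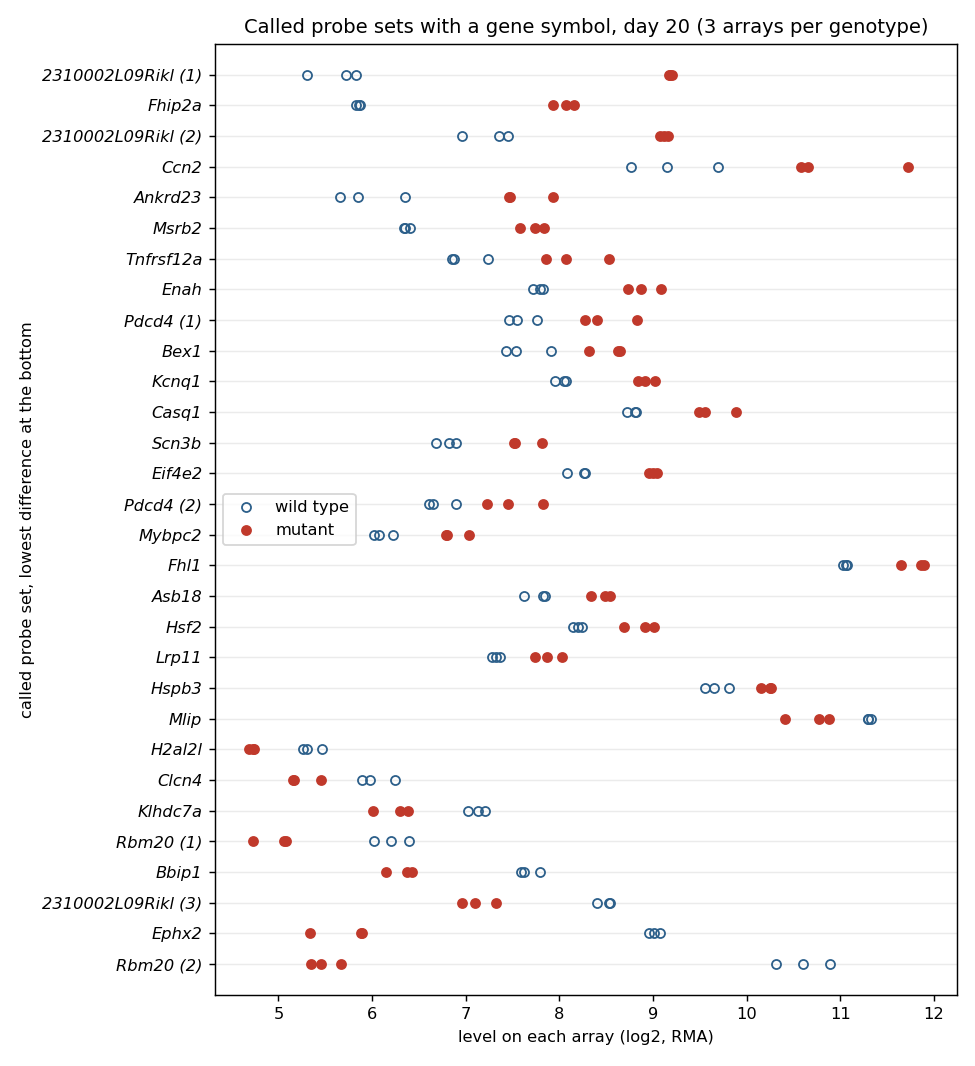
Level on each of the 6 day 20 arrays (log2, RMA) for the 30 called probe sets with a gene symbol, mutant arrays filled red and wild-type arrays open blue. Probe sets of the same gene are numbered from the top, and in every line the red points lie wholly to one side of the blue ones.

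The hypertrophy and wall stress list had 17 of 21 measured members higher, with a median of 0.24. Against 0.134% of all genes called higher and 0.0492% lower, 3 members were called higher and none lower. Besides Fhl1 these were Ccn2, the secreted connective tissue growth factor, and Tnfrsf12a, the receptor for the cytokine TWEAK. Ccn2 stood at 10.58, 11.72 and 10.65 in the mutant and 9.15, 8.77 and 9.69 in the wild type. Mutant array 2 was the highest of these, more than 1 above the other mutant arrays. Ccn2 rose by 1.78 ± 0.31, or 3.43-fold (limma, adjusted p = 0.0197). The adjusted p was 0.121 without mutant array 2, 0.109 without wild-type array 1 and 0.177 without wild-type array 2, where the differences were 1.41, 1.75 and 1.56. Tnfrsf12a rose by 1.17 ± 0.22 (adjusted p = 0.0466), and in none of the 6 fits without an array was it called, with adjusted p up to 0.263. The classical fetal and stress transcripts were not called. Nppb, the brain natriuretic peptide, stood at 12.09, 12.53 and 12.22 in the mutant and 11.51, 10.76 and 11.97 in the wild type, a difference of 0.86 ± 0.24 (adjusted p = 0.369). Wild-type array 2 was the lowest there, and without it the difference was 0.54. Nppa differed by 0.77 ± 0.33 (adjusted p = 1) and by 0.57 without that array. Myh7, the slow myosin heavy chain, showed 0.44 ± 0.19 in its brighter probe set and 0.15 without wild-type array 2. Myh6 differed by -0.05 ± 0.12 and Acta1 by 0.13 ± 0.12. Csrp3, the muscle LIM protein, just missed the threshold at 0.42 ± 0.08 (adjusted p = 0.0583).

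Contractile and calcium-handling genes moved in a few members. Of 30 thin and thick filament genes, 19 were higher, where 47.6% of all genes were. Enah and Mybpc2 were called, against 0.134% of all genes called higher. Enah, an actin filament elongation factor and a known splice target of RBM20, rose by 1.12 ± 0.12 (limma, adjusted p = 8.89e-05), with mutant arrays at 8.87, 9.08 and 8.74 and wild-type arrays at 7.83, 7.79 and 7.72. Mybpc2, the fast skeletal isoform of myosin-binding protein C, rose by 0.77 ± 0.12 (adjusted p = 0.00865). Casq1, the skeletal calsequestrin that stores calcium, stood at 9.89, 9.56 and 9.49 in the mutant and 8.80, 8.82 and 8.72 in the wild type. Every mutant value was above every wild-type value, and Casq1 rose by 0.87 ± 0.15 (adjusted p = 0.0178). These 2 genes were the called members of 21 skeletal muscle markers, where 0.134% of all genes were called higher. Of the 21 markers 11 were higher and 10 lower. The mean level of the list was 5.97 to 6.12 in the mutant and 5.97 to 6.03 in the wild type. In 5 members the genotypes did not overlap with the mutant higher, and in 1 with the mutant lower. Over all genes these shares were 5.21% and 6.65%. The skeletal markers Actn3 and Myod1 were at or below 4.14 in both genotypes. Myl1, a fast myosin light chain, averaged 6.95 on mutant and 6.34 on wild-type arrays without overlap, a difference of 0.61 ± 0.38 (adjusted p = 1). Ckm, the muscle creatine kinase that the heart also expresses, had means of 12.88 and 12.99, and Myh1, a fast myosin heavy chain, 11.65 and 12.21. The part of skeletal muscle RNA in these rises was not tested. Among 26 RBM20 splice targets 15 were higher and 11 lower, with a median of 0.01. Besides Enah, Mlip, a muscle protein that binds lamin, was called and fell by 0.61 ± 0.10 (adjusted p = 0.0178). Over all genes 0.134% were called higher and 0.0492% lower. The calls of Casq1 and Mlip held only without mutant array 3, with adjusted p of 0.0554 to 0.106 without any other array. That of Mybpc2 was lost without array 2 of either genotype or wild-type array 3 (0.0618 to 0.0802).

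Ion channel genes moved in both directions. Of 30 measured, 10 were higher and 20 lower, where 47.6% of all genes were higher. Called were 2 higher and 1 lower, against 0.134% and 0.0492% of all genes. The genotypes did not overlap in 3 members with the mutant higher and in 9 with the mutant lower, against 5.21% and 6.65% of all genes. Kcnq1, the pore subunit of the slow delayed rectifier potassium current, stood at 8.84, 9.02 and 8.91 in the mutant and 8.07, 8.04 and 7.96 in the wild type. The genotypes lay well apart, and Kcnq1 rose by 0.90 ± 0.10 (limma, adjusted p = 8.89e-05). Scn3b, a beta subunit of the sodium channel, rose by 0.82 ± 0.13 (adjusted p = 0.0102). Clcn4, a chloride and proton exchanger, fell by 0.78 ± 0.15 (adjusted p = 0.0488). Scn3b lost its call without mutant array 1 or wild-type array 1 or 2 (adjusted p 0.0541 to 0.0792), and Clcn4 without any 1 array (0.0505 to 0.342). Scn4b, another sodium channel beta subunit, was not called at -0.86 ± 0.31 (adjusted p = 0.835). Nor was Kcnd3, a subunit of the transient outward potassium current, at -0.46 ± 0.16 (adjusted p = 0.747).

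Several of the largest rises were in genes of no list on heart stress. 2310002L09Rikl, a gene named only by its clone, moved in opposite directions in different probe sets. In the first it stood at 9.20, 9.18 and 9.17 in the mutant against 5.82, 5.30 and 5.72 in the wild type. The mutant arrays were nearly equal and lay more than 3 above the wild type. This probe set rose by 3.57 ± 0.15 (limma, adjusted p = 1.53e-10). A second rose by 1.86 ± 0.16 (adjusted p = 3.90e-06), and another fell by 1.36 ± 0.15 (adjusted p = 0.000189). Fhip2a, of a family of adaptors for dynein-driven transport, rose by 2.20 ± 0.16 (adjusted p = 4.49e-07), from 5.83, 5.86 and 5.87 to 8.15, 7.93 and 8.07. Msrb2, a mitochondrial enzyme that repairs oxidised methionine, rose by 1.35 ± 0.13 (adjusted p = 1.69e-05). It was the called member of 32 antioxidant genes, where 0.134% of all genes were called higher. Of the 32, 14 were higher and 18 lower. Eif4e2, a cap-binding protein that represses translation, rose by 0.79 ± 0.09 (adjusted p = 0.000273).

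Smaller rises were met in Bex1 (0.91 ± 0.16), a small protein of the brain-expressed X-linked family, and in the heat shock factor Hsf2 (0.68 ± 0.12). The muscle ubiquitin ligase adaptor Asb18 rose by 0.69 ± 0.13, the receptor-related Lrp11 by 0.56 ± 0.10 and the muscle small heat shock protein Hspb3 by 0.55 ± 0.10, with limma's adjusted p between 0.0178 and 0.0466 over these 5 genes. Hsf2 had a second probe set of similar difference, 0.62 ± 0.12, just outside the threshold (adjusted p = 0.0564). Among the falls, Klhdc7a, a kelch-domain protein, differed by -0.90 ± 0.15 (limma, adjusted p = 0.0178) and H2al2l, a histone H2A-like gene, by -0.62 ± 0.11 (adjusted p = 0.0203). Asb18, Hspb3 and H2al2l lost their calls without any 1 array (adjusted p 0.0576 to 0.295). Hsf2 kept its call only without mutant array 1, as did Klhdc7a, and Lrp11 only without mutant array 3. Bex1 kept its call only without mutant array 1 or wild-type array 1.

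Ephx2, the soluble epoxide hydrolase that degrades epoxy fatty acids, was the largest fall after Rbm20. It stood at 5.89, 5.89 and 5.34 in the mutant and 9.08, 9.02 and 8.95 in the wild type. The 3 wild-type animals were nearly equal, and each was over 3 above each mutant animal. It fell by 3.31 ± 0.55 (limma, adjusted p = 0.0164). At the other ages the genotypes overlapped. At day 1 Ephx2 lay at 5.29 to 7.78 in the mutant and 5.59 to 7.91 in the wild type, and at day 49 at 7.64 to 8.31 and 7.22 to 8.24. Ephx2 was not called in any of the 6 fits that left out 1 array, with differences of -3.40 to -3.13 and adjusted p of 0.0505 to 0.11. The day 20 difference minus that at day 1 was -3.18 ± 0.78 and minus that at day 49 was -3.62 ± 0.78, and neither departure was called (adjusted p = 0.646 and 0.401).

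The 13 called probe sets without a single gene symbol, 3 higher and 10 lower, included some of the largest differences. Probe set 1378866_at fell by 2.70 ± 0.35 (limma, adjusted p = 0.000928), from 8.34, 8.27 and 8.54 in the wild type to 5.94, 5.62 and 5.47 in the mutant. Probe set 1375230_at fell by 2.69 ± 0.37 (adjusted p = 0.00188), and 1389429_at rose by 2.15 ± 0.18 (adjusted p = 3.59e-06). The wild-type and mutant arrays of all 3 were separated by more than 1.

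Genes of the G2 phase and mitosis were mostly higher in the mutant, with none called. Of 48 measured members 47 were higher in the mutant, the median difference was 0.32, 25 had an unadjusted p below 0.05, and 21 did not overlap between genotypes, where 5.21% of all genes did so in this direction. The mean level of the list was 5.70, 5.60 and 5.86 on the mutant arrays and 5.33, 5.36 and 5.30 on the wild-type arrays, so the genotypes lay apart. Leaving out any 1 array left 45 to 48 members higher, with medians of 0.28 to 0.40. Mki67, the proliferation antigen Ki-67, stood at 6.17, 5.95 and 6.25 in the mutant against 5.12, 5.28 and 5.14 in the wild type, and its difference of 0.94 ± 0.19 just missed the threshold (limma, adjusted p = 0.0539). Ccnb2, a mitotic cyclin, differed by 1.01 ± 0.22 (adjusted p = 0.122), and Kif20a, a kinesin of cytokinesis, by 0.80 ± 0.17 (adjusted p = 0.0987). In 31 of the 48 genes the wild-type level was below the array-wide median. At day 1 the list had mean levels of 8.05 to 8.47 over both genotypes. Of 35 G1/S and replication genes 28 were higher at day 20, with a median of 0.14, none called by limma, 1 at an unadjusted p below 0.05 and 1 not overlapping. Beside this, the erythroid list had mean levels of 7.04 to 7.81 in the mutant and 7.03 to 7.40 in the wild type, and the leukocyte list 5.95 to 6.11 and 6.01 to 6.18. The part of cell composition in these differences was not tested.

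**Figure D3:**
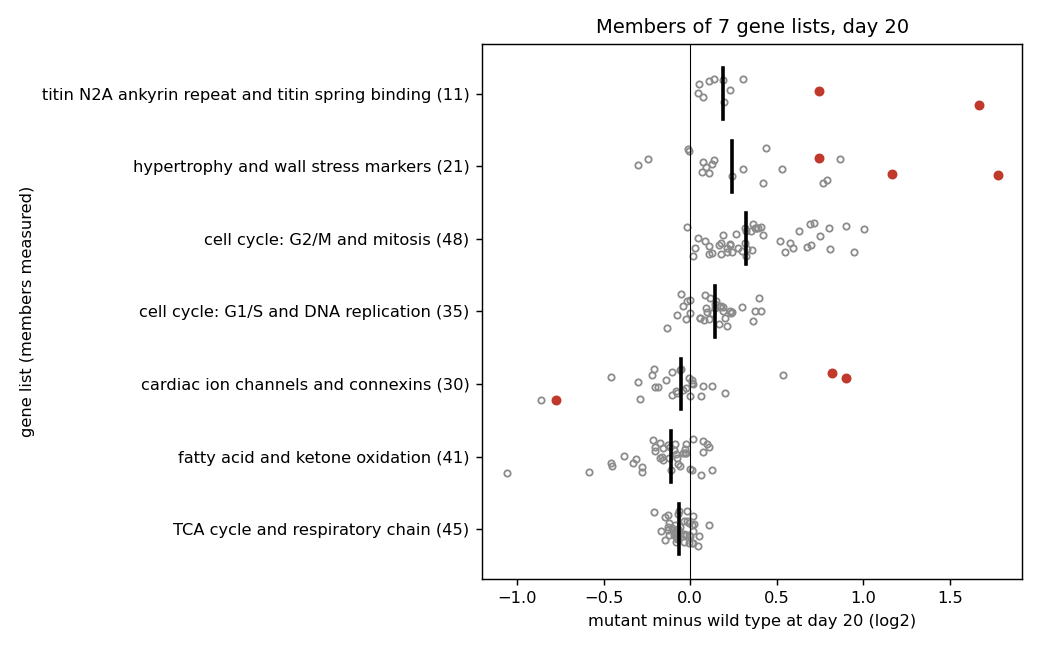
Mutant minus wild-type difference at day 20 (log2) of each measured member of 7 gene lists, with called members in red and the list median as a black bar; vertical scatter only separates points. G2/M and mitosis members lie almost all above 0, and fatty acid oxidation members mostly below 0.

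Most measured genes of energy metabolism had lower values in the mutant, with none called. Of 41 fatty acid and ketone oxidation genes 32 were lower, with a median of -0.11, and 12 did not overlap between genotypes with the mutant lower, where 6.65% of all genes did so. By limma 5 had an unadjusted p below 0.05. Without 1 array 27 to 37 were lower, and the median moved to -0.04 without mutant array 1. Hadh, a dehydrogenase of beta-oxidation, differed by -0.33 ± 0.10 (limma, adjusted p = 0.491). Ucp3, a mitochondrial carrier, differed by -1.06 ± 0.30 with overlapping arrays (adjusted p = 0.463). Of 45 genes of the TCA cycle and respiratory chain 35 were lower, with a median of -0.07 and 0 at an unadjusted p below 0.05. Without mutant array 1, 25 were lower and the median was -0.02, while 31 to 41 were lower without 1 of the other arrays. Of 28 glycolysis genes 19 were lower, again with none called and 2 at an unadjusted p below 0.05.

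Matrix genes and markers of other cell types, apart from the skeletal muscle markers above, held 1 called gene. Ccn2 was the called member of 48 extracellular matrix genes, where 0.134% of all genes were called higher. Of the 48, 35 were higher. That count was 26 without mutant array 3 and 43 without wild-type array 2, with medians of 0.02 and 0.17. Col1a2, a chain of type I collagen, differed by 0.20 ± 0.14 (limma, adjusted p = 1). No marker of fibroblasts, endothelium, smooth muscle, leukocytes, erythroid cells or thymocytes was called, and their medians lay between -0.06 and 0.09. These medians moved when 1 array was left out. Erythroid markers had 7 of 10 members higher, but 1 of 10 without mutant array 1, with a median of -0.12, and medians up to 0.21 without another array. The medians without 1 array were -0.07 to 0.16 for smooth muscle, -0.10 to -0.01 for leukocytes, 0.06 to 0.15 for fibroblasts, -0.05 to 0.03 for endothelium and -0.04 to 0.05 for thymocytes. By limma 2 of 20 fibroblast markers and 0 of the other markers named here had an unadjusted p below 0.05. Atf3, a stress-induced transcription factor among the immediate early genes, differed by 1.21 ± 0.32 (adjusted p = 0.333).

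The other lists are given by their counts, to be read beside the 47.6% of all genes that were higher. Calls are to be read beside the 0.134% of all genes called higher and the 0.0492% called lower. Higher in the mutant were 17 of 28 YAP and SRF targets, with Ccn2 called, and 13 of 25 genes of TWEAK, TGF-beta and interleukin-6 signalling, with Tnfrsf12a called. Of 20 genes on lipid mediators 8 were higher and Ephx2 was called. Of 30 calcium-handling genes 16 were higher, and 2 did not overlap with the mutant higher and 6 with the mutant lower, where 5.21% and 6.65% of all genes did so. Among the 6 was Hrc, a calcium-binding protein of the sarcoplasmic reticulum, at -0.29 ± 0.12. Higher were also 17 of 26 chaperones, 13 of 23 proteolysis genes, 11 of 16 histones, 9 of 20 cell cycle inhibitors and 9 of 16 genes of the nuclear envelope, where Mlip was called. Translation control had 8 of 17 genes higher with Pdcd4 called, and cilia 6 of 15 with Bbip1 called. Lower were 12 of 17 circadian genes, 12 of 17 atrial and conduction markers, 6 of 10 adipocyte markers, 11 of 13 mesothelial markers and 3 of 4 sex-linked transcripts. No member of these last 5 lists was called by limma, and 2, 3, 0, 0 and 0 had an unadjusted p below 0.05.

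Just outside the threshold lay Mki67, Csrp3 and several others. Of 24 Z-disc and M-band genes 14 were higher and none was called. Myot, the Z-disc protein myotilin, stood at 5.13, 5.75 and 5.12 in the mutant and 4.49, 4.59 and 4.42 in the wild type, a difference of 0.83 ± 0.17 (limma, adjusted p = 0.0698). Dusp26, a protein phosphatase, differed by 0.87 ± 0.17 (adjusted p = 0.0564) and Lamb3, a laminin chain, by 0.71 ± 0.14 (adjusted p = 0.0561). Ddx10, an RNA helicase, differed by 0.50 ± 0.10 (adjusted p = 0.0539), and Usp12, a deubiquitinase, by -0.53 ± 0.10 (adjusted p = 0.0546). In each of these genes the genotypes did not overlap, which is no further support, since they were picked by their small p. Over all genes 5.21% did not overlap with the mutant higher and 6.65% with the mutant lower.

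The day 20 calls were then set beside the other ages. Of the 43, 41 had the same direction at day 1 and 42 at day 49, where 52.9% and 57.7% of all probe sets did. The exceptions were Ccn2 and a probe set without a symbol at day 1, and Ephx2 at day 49. Of the 43, 10 were also called in the same direction at day 1 and 28 at day 49, and 8 at all 3 ages. In total 34 probe sets were called at day 1 and 188 at day 49. Another 13, among them Ccn2, Ephx2, Tnfrsf12a, Fhl1 and Scn3b, were called at day 20 alone. None of these 13 passed limma's test of departure from day 1 or day 49, while 8 and 3 had an unadjusted p below 0.05, so a call at day 20 alone does not show a difference confined to that age.

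**Figure D4:**
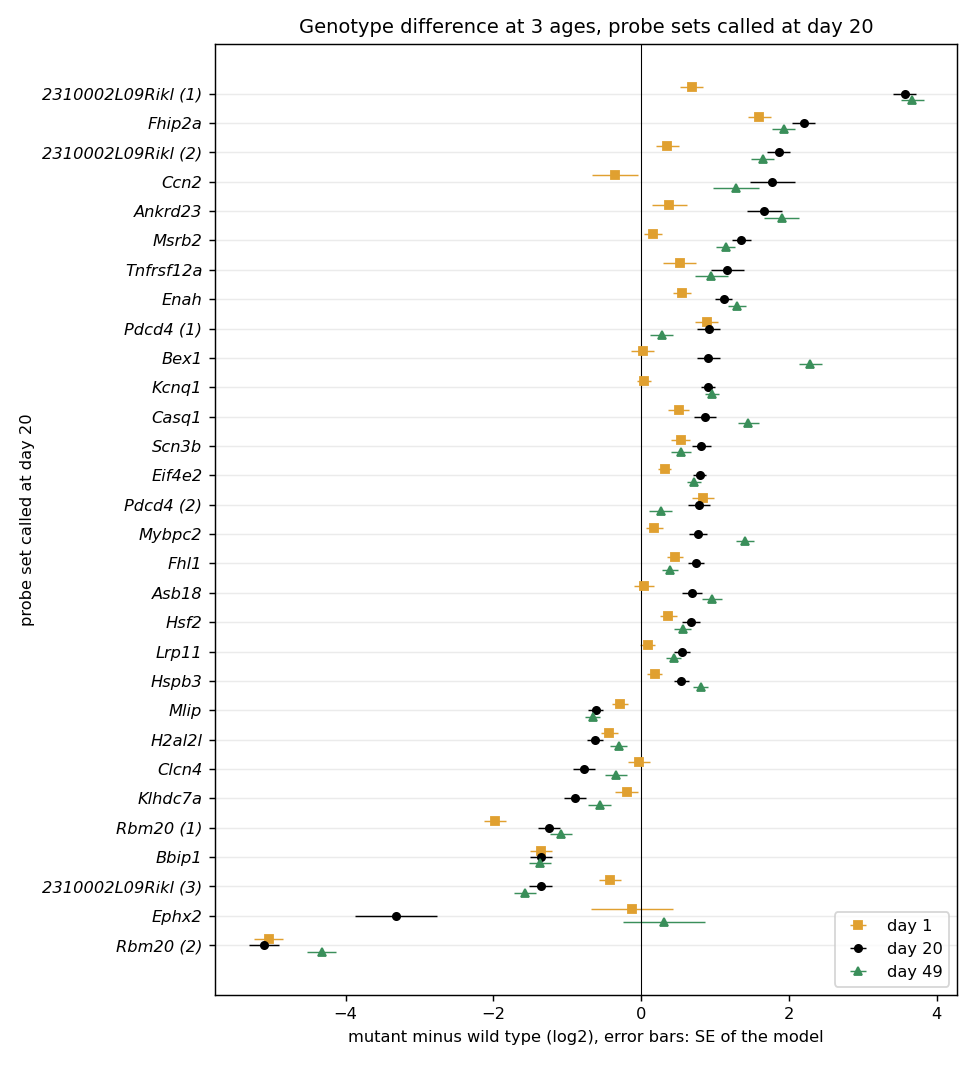
Mutant minus wild-type difference (log2, bars SE of the model) at days 1, 20 and 49 for the 30 named probe sets called at day 20, in the order of the day 20 difference and numbered from the top. Bex1 moves from 0.02 at day 1 to 0.91 and then 2.29, and Ephx2 departs from 0 at day 20.

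The day 20 difference departed from that at day 1 in 6 probe sets (0.0193%) and from that at day 49 in 6 (0.0193%). Without 1 of the day 20 arrays these counts were 1 to 5 and 1 to 7, with 1 left against day 1 when mutant array 2, mutant array 3 or the second wild-type array was dropped, and 1 against day 49 when mutant array 3 was. Kcnq1 was level at day 1, with a difference of 0.04 ± 0.10, and its day 20 difference was 0.86 ± 0.14 larger (limma, adjusted p = 0.0323). Msrb2 differed by 0.16 at day 1 and by 1.19 ± 0.18 more at day 20 (adjusted p = 0.0206). Ankrd23 differed by 0.38 at day 1 and 1.90 at day 49, and its day 20 difference was not shown to depart from either (adjusted p = 0.684 and 1). The Bex1 difference was 0.91 at day 20 and 2.29 at day 49, and the day 20 value minus the day 49 value was -1.39 ± 0.22 (adjusted p = 0.0398).

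**Figure D5:**
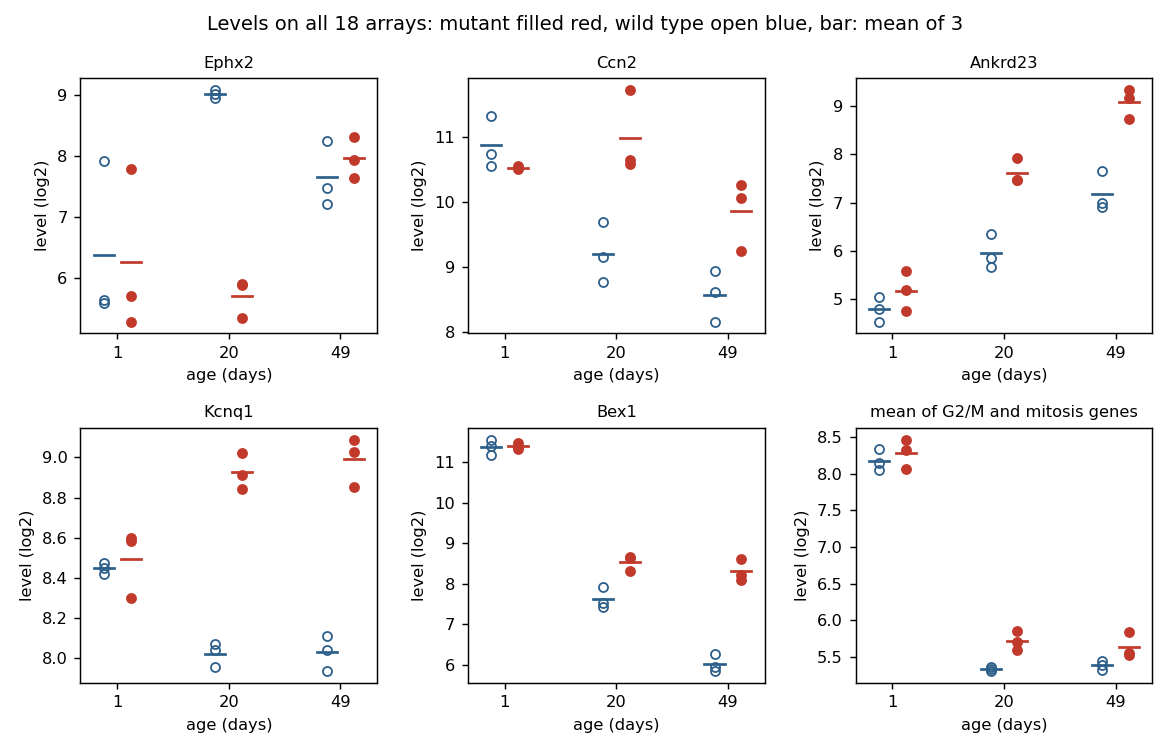
Level on all 18 arrays (log2) of Ephx2, Ccn2, Ankrd23, Kcnq1 and Bex1 and the mean level of 48 G2/M and mitosis genes, by age, with mutant arrays filled red, wild-type arrays open blue and bars at the mean of 3. Kcnq1 mutant arrays at day 20 lie at 8.84 to 9.02, all above the wild-type arrays.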

How the data were processed

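Values are on the log2 scale, 1 per probe set, and the authors made them by RMA from scanned Affymetrix Rat 230 2.0 arrays, per the labels and the design text. No further scaling was applied. Arrays have no read depth, so precision rests on how many animals were used. Of 31099 probe sets 57 controls were left out. Of those tested, 20826 had 1 symbol in the platform annotation, 436 several and 9780 none.

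Tests used lmFit and eBayes of limma 3.58.1 (R 4.3.3) on 1 model of 6 groups and 18 arrays. It had 12 residual degrees of freedom and 5.77 prior ones, with Benjamini-Hochberg adjustment over all probe sets. Interaction contrasts tested departure from days 1 and 49. The fit was tested on simulated data. Named were called probe sets with 1 symbol, a fixed set of stress genes, genes just outside the threshold, leading members of 39 gene lists, and neighbours of Rbm20. List genes were read from the brightest of their probe sets on average. Lists and members were chosen with earlier results of these data known. Alternatives changed scaling, filter, moderation, samples and blocking. Counts of list members without each array were added after the data were seen. Rat sequences were not used here.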

Additional observations from a re-analysis of the deposited data

Results flagged for a closer look

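The genotype difference at day 20 departed from that at another age in 12 probe sets by limma's interaction test, each a difference between groups under the same contrast. Against day 1, 2310002L09Rikl differed by 2.88 ± 0.22 (adjusted p = 3.71e-06) in 1 probe set and by 1.51 ± 0.22 (adjusted p = 0.0206) in another. A probe set without a symbol departed by 1.51 ± 0.21 (adjusted p = 0.0166). Msrb2 departed by 1.19 ± 0.18 and Kcnq1 by 0.86 ± 0.14. Dguok, a mitochondrial nucleoside kinase, departed by 2.55 ± 0.38 (adjusted p = 0.0206), with a difference of 0.98 at day 20 that was not called and -1.57 at day 1.

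Against day 49, Sctr, the secretin receptor, departed by 1.81 ± 0.22 (adjusted p = 0.00448), with -0.17 at day 20 and -1.99 at day 49. Probe sets without a symbol departed by 1.74 ± 0.24 and 1.58 ± 0.23. Ccl5, a chemokine, departed by -1.60 ± 0.23, from 0.84 at day 49 to -0.76 at day 20. Bex1 departed by -1.39 ± 0.22 and Prkaca, a catalytic subunit of protein kinase A, by -1.84 ± 0.30 (adjusted p = 0.043).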

How the results depend on the processing

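The count of called probe sets at day 20 was 43, and 35 to 48 under other scalings, filters, moderation, day 20 arrays alone or a replicate block. Leaving out 1 array gave 21 to 32 calls, 12 to 19 higher and 8 to 13 lower. Departures from day 1 numbered 1 to 5 and from day 49 1 to 7. With 1 probe set per gene the split was 28 higher and 8 lower, and 3 departed from day 1. No called named probe set reversed its direction. Gene lists were less stable, as the median difference of 20 of the 39 lists changed sign in at least 1 alternative. The erythroid median went from 0.064 to -0.119 without mutant array 1. That of the YAP and SRF targets went from 0.035 to -0.030 without wild-type array 3. Of 30 named probe sets, 13 were called in all 6 fits without 1 array and in every alternative that held them. They were those of Rbm20, 2310002L09Rikl, Fhip2a, Msrb2, Enah, Kcnq1, Eif4e2, Bbip1, Ankrd23 and Fhl1. The fit with 1 probe set per gene held 26 of the 30, and the fit without dim probe sets 29. Asb18, H2al2l, Ephx2, Clcn4, Tnfrsf12a and Hspb3 were called in none of the 6 fits without 1 array. The replicate block gave 35 calls, 10 departures from day 1 and 12 named calls lost. Same-numbered arrays correlated at 0.05, 0.13 and -0.00080 in their deviations. Mutant arrays 1 and 2 correlated best with the wild-type array of their own number, while mutant array 3 did so with wild-type array 1 (0.12). Such correlations over 3 arrays a group cannot tell whether same-numbered animals were paired. The cause of the changes between fits was not tested. Dim levels limit what can be seen, as 6 of the called falls ended below the array-wide median.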
